A study of Mus musculus with 6 samples.

Results

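The acyl-CoA thioesterase genes were examined in left ventricle of 3 sickle and 3 control male mice, 1 array per mouse. Of 9 listed genes (Acot1, Acot2, Acot3, Acot4, Acot7, Acot8, Acot9, Acot11 and Acot13), 7 had an array row that the platform annotation gives to that symbol alone, among 21506 genes measured that way. Acot8 shared its row with Snx21, and Acot9 is not analysed here. A gene with several rows is given by its brightest row, judged by the mean of all 6 arrays. The family was picked with the sickle against control differences of these arrays already known, Acot1 and Acot2 in particular, so those differences are a description here and carry no test.

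The sickle mice were homozygous for Hbbtm2(HBG1,HBB*)Tow, an engineered locus that carries human gamma-globin and sickle beta-globin genes, and also carried Hbatm1(HBA)Tow, the human alpha-globin replacement. The control mice were homozygous for Hbbtm3(HBG1,HBB)Tow, with the non-sickling human beta-globin, and for the same Hbatm1(HBA)Tow. All were of the mixed B6;129 background and 10 to 14 weeks old, per the labels, and all carry human in place of mouse globin genes, so the control is a humanised mouse. The labels also describe electrocardiograms and arrhythmia induction under anaesthesia without saying whether the mice on the arrays had them.

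Acyl-CoA thioesterases cut acyl-CoA into free fatty acid and coenzyme A, which opposes the acyl-CoA synthetases that activate fatty acids before oxidation. Type I enzymes (Acot1 to Acot6 in the mouse) share an alpha/beta hydrolase fold and differ mainly in where they work: Acot1 in the cytosol, Acot2 in the mitochondrial matrix, Acot3, Acot4, Acot5 and Acot6 in peroxisomes. Type II enzymes (Acot7 to Acot13) have an unrelated hotdog fold. The heart runs largely on fatty acids, and in mice Acot1 and Acot2 are known as genes induced through PPAR-alpha, the nuclear receptor that senses fatty acids and switches on their oxidation.

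The 4 listed type I genes lie next to each other on mouse chromosome 12 in the order Acot2, Acot1, Acot4, Acot3, followed by Acot5 and Acot6. Their RefSeq promoter windows (GRCm38.p6, 250 bases before to 50 bases after the gene's start, all on the + strand) are shown to set the pair Acot1 and Acot2 beside its neighbours. Capitals mark the CCAAT element (ATTGG on the other strand) and AGGTCA, the half-site that nuclear receptors such as PPAR-alpha bind (TGACCT on the other strand). The windows are chr12:83987611-83987910 for Acot2, chr12:84009252-84009551 for Acot1, chr12:84038129-84038428 for Acot4 and, for Acot3, the first of its listed windows, chr12:84051894-84052193.
Acot2: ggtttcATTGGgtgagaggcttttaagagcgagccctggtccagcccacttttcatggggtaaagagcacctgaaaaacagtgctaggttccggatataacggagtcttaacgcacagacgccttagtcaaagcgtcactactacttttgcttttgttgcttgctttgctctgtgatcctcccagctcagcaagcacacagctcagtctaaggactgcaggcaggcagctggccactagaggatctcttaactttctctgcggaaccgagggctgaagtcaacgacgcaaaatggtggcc
Acot1: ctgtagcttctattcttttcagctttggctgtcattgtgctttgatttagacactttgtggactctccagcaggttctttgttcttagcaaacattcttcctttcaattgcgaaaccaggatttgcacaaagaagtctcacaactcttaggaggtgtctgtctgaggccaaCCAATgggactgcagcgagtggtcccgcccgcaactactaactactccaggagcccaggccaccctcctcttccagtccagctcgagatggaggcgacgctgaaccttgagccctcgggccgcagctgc
Acot4: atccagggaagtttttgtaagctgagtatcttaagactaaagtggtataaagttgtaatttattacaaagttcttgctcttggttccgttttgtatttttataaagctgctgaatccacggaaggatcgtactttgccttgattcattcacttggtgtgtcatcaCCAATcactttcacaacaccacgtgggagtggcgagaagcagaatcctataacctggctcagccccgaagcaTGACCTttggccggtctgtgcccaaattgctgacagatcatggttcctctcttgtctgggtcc
Acot3: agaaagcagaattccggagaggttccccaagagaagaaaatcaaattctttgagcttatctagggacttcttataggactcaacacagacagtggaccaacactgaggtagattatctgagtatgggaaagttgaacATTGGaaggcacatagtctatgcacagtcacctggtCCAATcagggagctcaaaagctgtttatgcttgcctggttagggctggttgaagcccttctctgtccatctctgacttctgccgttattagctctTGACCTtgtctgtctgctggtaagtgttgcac

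Of the 9 listed genes, 8 had a promoter window in the RefSeq table. AGGTCA on either strand was found in windows of 2 of the 8 genes, Acot3 and Acot4, and in 16.3% of all 32851 promoter windows of the table. It was not in the windows of Acot1 and Acot2. The tandem form AGGTCANAGGTCA was in 0 of the 8 genes and in 0.0396% of all windows. CCAAT was in windows of 7 of the 8 genes, all but Acot7, against 37.4% of all windows. The windows of Acot1 and Acot2 were 46.2% identical in a global alignment, within the range of 41.8% to 48.5% over the 28 pairs of these 8 genes. These windows are short, and letters outside them were not searched.

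Acot1 and Acot2 had lower signals in the sickle ventricle, and the other 5 measured genes lay closer to control. Signals are the deposited log2 values. They come from RMA, which removes background, gives all arrays a common distribution and merges the probes of each transcript. Acot1 had 5.59, 5.60 and 5.78 in sickle replicates 1, 2 and 3, against 6.71, 7.27 and 7.57 in control replicates 1, 2 and 3. The groups did not overlap, and the highest sickle array was 0.93 below the lowest control array. The mean was 5.66 ± 0.10 in sickle and 7.18 ± 0.44 in control (SD, n = 3 each), a sickle minus control difference of -1.52 ± 0.21 (moderated SE), or 2.87-fold lower. Control arrays spread over 0.87 on the log2 scale and sickle arrays over 0.19.

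Acot2 had 11.44, 11.67 and 11.55 in the sickle arrays, against 12.27, 12.29 and 12.59 in the control arrays. These groups were also separate, with a gap of 0.60 between the highest sickle and the lowest control array. The means were 11.55 ± 0.12 in sickle and 12.38 ± 0.18 in control (SD, n = 3 each), a difference of -0.83 ± 0.12 or 1.78-fold lower. By size, Acot1 and Acot2 held places 7 and 36 among the 11093 genes with a lower mean in sickle. Control replicate 3 had the highest signal of both genes.

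**Figure D1:**
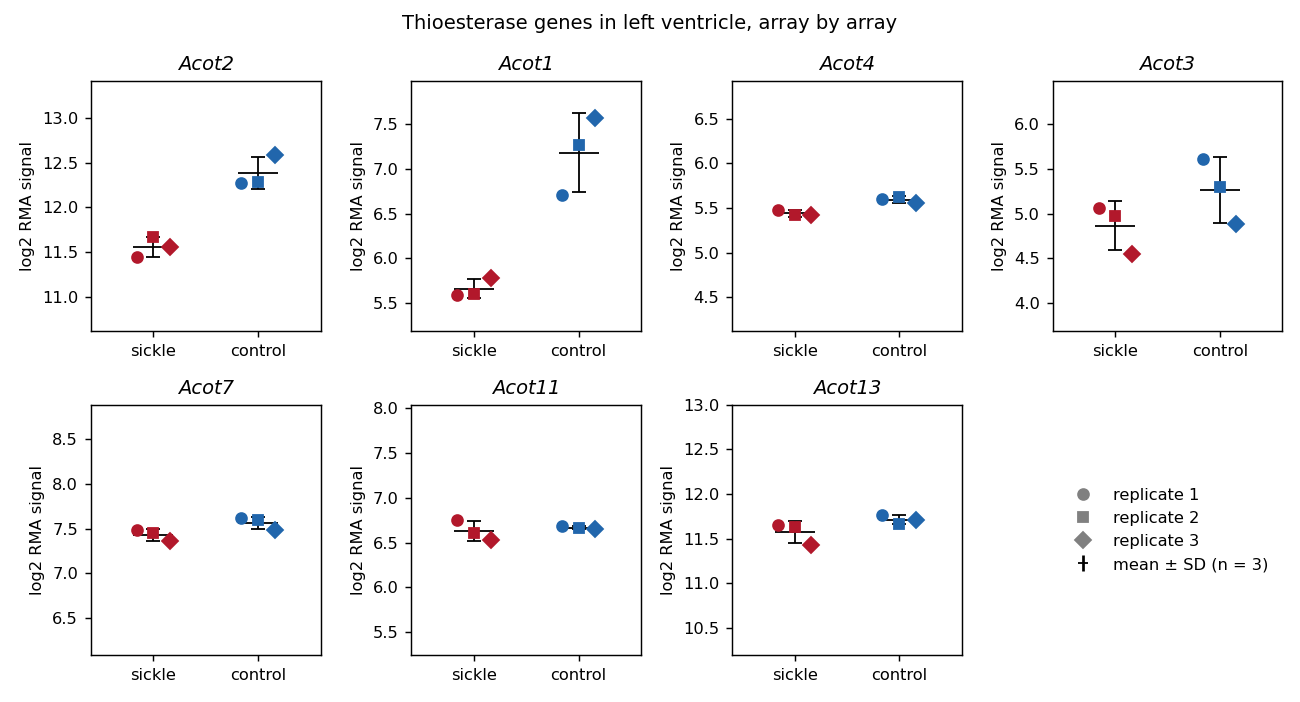
Log2 RMA signal (vertical axis, the same span of log2 units in each panel) of the 7 measured thioesterase genes in sickle (red) and control (blue) arrays, with symbols for replicates and black bars for the mean ± SD of 3 arrays. Acot1 and Acot2 show a gap between the groups of 0.93 and 0.60, while the other 5 genes lie within 0.40 of control on average.

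The peroxisomal neighbours were dimmer and nearer to control. Acot4, which acts on short and dicarboxylic acyl-CoAs in mouse peroxisomes, had 5.48, 5.42 and 5.42 in sickle, against 5.60, 5.62 and 5.55 in control. The groups were separate, but by 0.07 only, and the difference was -0.15 (95% interval -0.35 to 0.05). Acot3, a peroxisomal long-chain thioesterase, had 5.07, 4.97 and 4.55 in sickle, against 5.62, 5.30 and 4.88 in control. These ranges overlapped, with a difference of -0.40 (95% interval -0.89 to 0.09). The sickle mean, 4.87, lay below the receptor background of 4.92 and the control mean, 5.26, above it, so the size of this difference is uncertain. Acot3 was lowest in control replicate 3 among the controls, the array in which Acot1 and Acot2 were highest.

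Among the type II genes, Acot13, which encodes a small mitochondria-associated thioesterase (Them2), was bright in every array. It had 11.66, 11.63 and 11.44 in sickle, against 11.76, 11.67 and 11.71 in control, a difference of -0.14 (95% interval -0.37 to 0.09). The gap between the groups was 0.01. Acot7, a cytosolic long-chain enzyme best known from brain, had 7.48, 7.45 and 7.36 in sickle, against 7.61, 7.60 and 7.49 in control. It also separated the groups by 0.01, with a difference of -0.14 (95% interval -0.35 to 0.07). Acot11, the brown-fat enzyme Them1, had 6.75, 6.60 and 6.53 in sickle, against 6.68, 6.67 and 6.65 in control, and the groups overlapped (difference -0.04, 95% interval -0.26 to 0.18). All 5 intervals include 0, and each leaves room for a change of the size of its bounds.

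All 7 genes had a lower mean in sickle, where 51.6% of all genes did, and 5 of the 7 had groups that did not overlap, lower in sickle, where 8.36% of all genes did. With limma and Benjamini-Hochberg adjustment over 21506 genes, 0 of the 7 passed an adjusted p of 0.05, where 0.181% of all genes did, and 2 of the 7 (Acot1 and Acot2) had an unadjusted p under 0.05, where 8.69% did. Since the contrast was used to pick the family, these counts are only set beside the background. Acot1 passed the adjusted threshold in 5 of 14 alternative fits and Acot2 in 2 of 14, so whether they pass depends on the fit. No test is read from these passes either. The family's median difference was -0.15, against -0.01 over all genes.

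**Figure D2:**
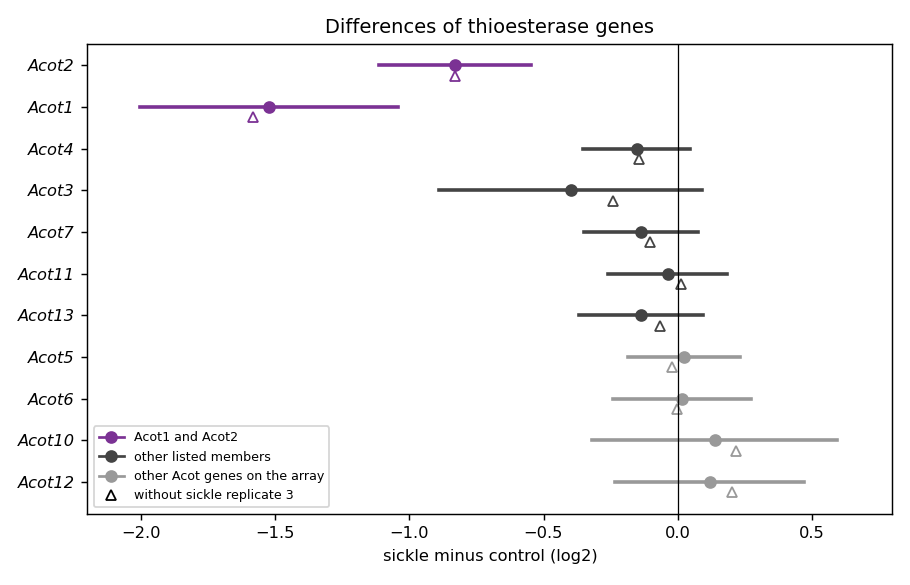
Sickle minus control difference (horizontal axis, log2) of thioesterase genes, with points for the estimate, lines for its 95% interval from the fit over all genes, and open triangles for the value without sickle replicate 3. The intervals of Acot1 (-2.003 to -1.042) and Acot2 (-1.11 to -0.55) lie below 0, and those of the other 9 genes include it. No test is read from these intervals, since the pair was picked from this contrast.

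Set against each other within each array, Acot1 and Acot2 stood below the rest of the family in all sickle arrays. The mean of the pair minus the mean of the other 5, each gene taken relative to its control mean, was -1.193, -1.001 and -0.814 in sickle replicates 1, 2 and 3, against -0.39, -0.02 and 0.40 in the control arrays. The sickle arrays were all lower than the control arrays, and the controls differed among themselves by more than the sickle arrays did. The group difference of this contrast was -1.003, and -1.06 with Acot3 left out (chosen after seeing the data). Between the pair, the Acot1 difference was 0.69 further below control than that of Acot2 on the log2 scale. Acot1 minus Acot2, again relative to control means, was -0.64, -0.86 and -0.57 in sickle and -0.37, 0.18 and 0.19 in control. In mouse the Acot1 and Acot2 transcripts are very similar in sequence, and whether their array rows share signal was not tested.

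Along the chromosome, the mean was lower in sickle for the 4 adjoining genes Acot2, Acot1, Acot4 and Acot3, most for the pair, and not for Acot5 and Acot6 that follow. Acot5 had 3.59, 3.56 and 3.71 in sickle, against 3.60, 3.60 and 3.58 in control, and its row was not above the level of receptor rows described under the processing. Acot6 had 5.49, 5.55 and 5.57 in sickle, against 5.64, 5.32 and 5.61 in control (difference 0.02, 95% interval -0.24 to 0.27). On the other side of Acot2, Riox1, Numb, Papln and Rbm25 had differences of 0.07, 0.07, 0.27 and 0.14. The groups of Papln and Rbm25 did not overlap, with sickle higher, a share not counted over all genes. Beyond Acot6, Dnal1, Pnma1, Mideas and Ptgr2 had 0.15, -0.08, 0.03 and -0.06. None of these 8 flanking genes passed an adjusted p of 0.05 (limma, smallest adjusted p = 0.585), where 0.181% of all genes did.

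**Figure D3:**
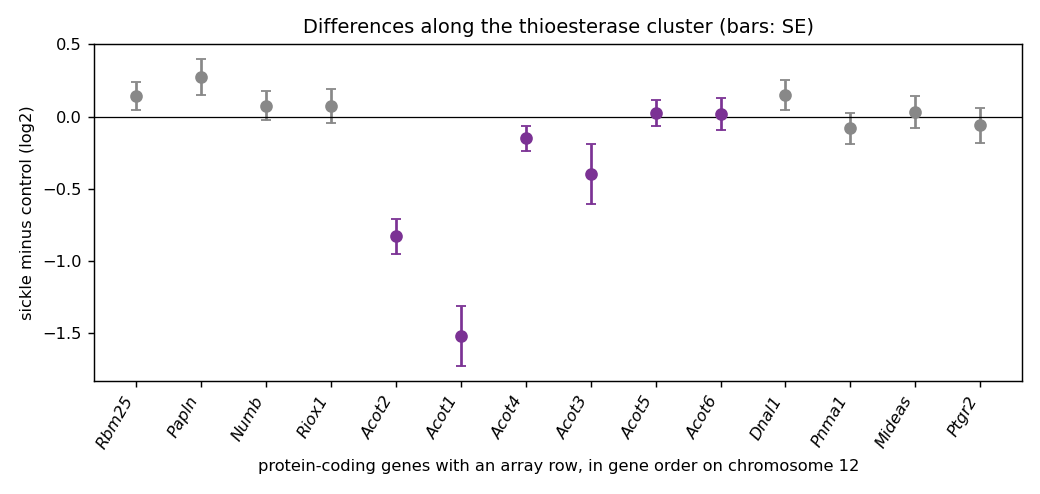
Sickle minus control difference (vertical axis, log2; bars are standard errors) of the protein-coding genes with an array row around the thioesterase cluster, in RefSeq gene order on chromosome 12 and not to scale. Acot2 (-0.83) and Acot1 (-1.52) are the neighbouring low points, while Acot5, Acot6 and the flanking genes lie between -0.08 and 0.27.

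Elsewhere in the genome, Acot10, a mitochondrial relative of Acot9, had 5.94, 6.59 and 6.03 in sickle, against 6.21, 6.15 and 5.78 in control. Acot12, which cuts acetyl-CoA in liver cytosol, had 4.87, 4.89 and 4.62 in sickle, against 4.37, 4.82 and 4.83 in control, with a row not above the receptor level. In both genes the groups overlapped. A further list held 15 genes outside the listed family, thioesterases together with the acyltransferases Mcat and Baat. Of these, 7 were lower and 8 higher in sickle, with a median of 0.00. Of the 15, 0 passed the adjusted threshold and 0 an unadjusted p of 0.05 (limma), where 0.181% and 8.69% of all genes did. Ppt1, the lysosomal palmitoyl-protein thioesterase (0.27 ± 0.19, SE), and Them6 (0.21 ± 0.10) had the largest differences of that list.

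Signals of genes around the thioesterases in fatty acid handling were mostly a little lower in sickle. Over 7 lists with 99 measured genes, 76 were lower and 23 higher, with a median of -0.13, against -0.01 over all genes. None passed an adjusted p of 0.05 (limma, smallest adjusted p = 0.266), where 0.181% of all genes did. Of the 99, 16 lower and 3 higher genes had an unadjusted p under 0.05 (limma), where 8.69% of all genes did in either direction. Only 1 of the 99, Pdk4, had a difference further below 0 than Acot1 or Acot2.

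Acyl-CoA synthetases, which make the substrate of the thioesterases, were lower in 12 of 15 genes, with a median of -0.12. The medium-chain synthetase gene Acsm5 had -0.51 ± 0.12 (SE), and Acsm2 had 0.34 ± 0.15 at a level not above the receptor background. Carnitine shuttle genes were lower in 6 of 7 (median -0.20). Slc25a20, the carnitine carrier of the inner mitochondrial membrane, had 10.18, 10.14 and 9.88 in sickle, against 10.54, 10.64 and 10.51 in control (difference -0.49 ± 0.11). Its groups did not overlap, nor did those of Cpt2, the carnitine palmitoyltransferase of the inner membrane (-0.36 ± 0.12).

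Mitochondrial beta-oxidation genes were lower in 16 of 18, with a median of -0.19. Decr1, the dienoyl-CoA reductase, had -0.41 ± 0.11 and Eci1, an enoyl-CoA isomerase, -0.34 ± 0.16. Peroxisomal genes were lower in 12 of 15 (median -0.11). Pex11a, a peroxisome-division gene induced by PPAR-alpha agonists in mice, had 6.46, 6.53 and 6.41 in sickle, against 7.24, 7.06 and 6.82 in control (-0.58 ± 0.12). Nudt7, a peroxisomal coenzyme A hydrolase, had -0.53 ± 0.15. Among the 3 higher peroxisomal genes, Acox2 had 0.37 ± 0.13.

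PPAR target genes outside those lists were lower in 13 of 17 (median -0.12). Among the 4 higher ones, Txnip had 0.49 ± 0.17 and Creb3l3 0.36 ± 0.13 (SE). Pdk4, the kinase that shuts off pyruvate dehydrogenase, had 9.49, 10.50 and 10.93 in sickle, against 11.62, 12.07 and 11.85 in control (difference -1.54 ± 0.33, adjusted p = 0.283 by limma). Its sickle arrays spread widely (SD 0.74, against 0.23 in control), whereas those of Acot1 lay close together (SD 0.10). Plin5, which coats lipid droplets beside mitochondria, had 8.85, 9.005 and 8.65 in sickle, against 9.75, 9.69 and 9.26 in control (-0.73 ± 0.16). The groups of some other targets overlapped: Angptl4, an inhibitor of lipoprotein lipase, differed by -0.13 ± 0.36 and Ucp3, a mitochondrial carrier, by -0.51 ± 0.26. The lipid-supply genes Lpl, Fabp3 and Cd36 differed by 0.00, -0.06 and -0.09, and of these Cd36 had groups that did not overlap. Over the 17 targets, 6 had groups without overlap lower in sickle, where 8.36% of all genes did. For 1 target the groups did not overlap with sickle higher, a share not counted over all genes.

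The receptors themselves were near control. Ppara, which encodes PPAR-alpha, had 8.03, 7.98 and 7.62 in sickle, against 7.99, 8.06 and 8.06 in control, with 1 low array, sickle replicate 3. Pparg differed by -0.16 ± 0.11, Ppard by 0.12 ± 0.16 and Rxra, the shared partner receptor, by -0.02 ± 0.10. Ppargc1a, the coactivator PGC-1 alpha, had 10.34, 10.29 and 9.84 in sickle, against 10.47, 10.35 and 10.57 in control (-0.31 ± 0.15), and Ppargc1b had -0.28 ± 0.16. Of 12 receptor and cofactor genes 10 were lower (median -0.15). Of the 12, 0 passed the adjusted threshold and 0 an unadjusted p of 0.05 (limma), where 0.181% and 8.69% of all genes did.

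**Figure D4:**
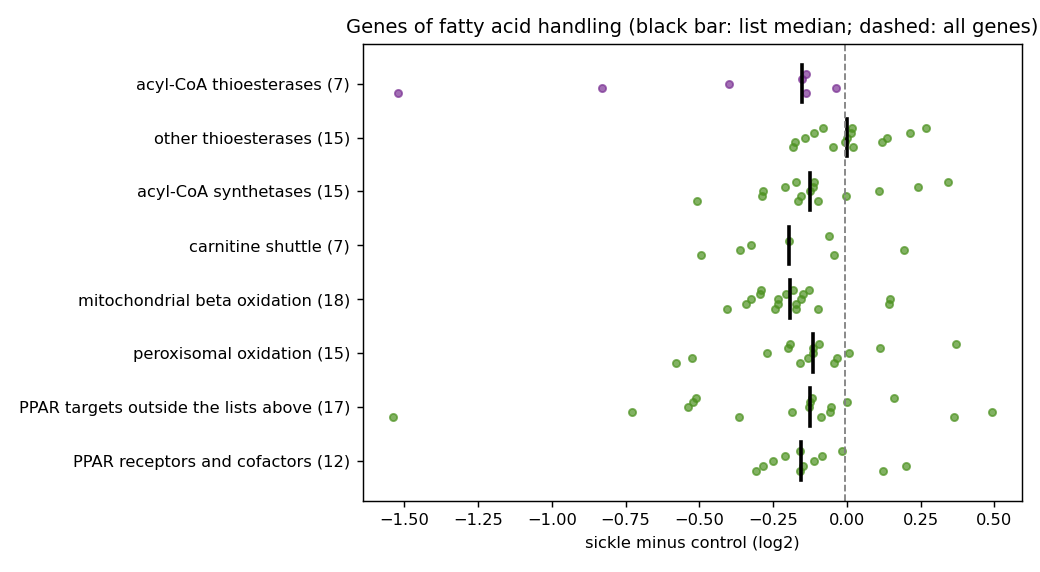
Sickle minus control difference (horizontal axis, log2) of each measured gene in the thioesterase family (purple) and in 7 lists of fatty acid handling (green), with the number of genes in brackets, a black bar at each list's median and a dashed line at the median of all genes. The list medians lie between -0.20 and 0.00, and Acot1, Acot2 and Pdk4 lie farthest to the left.

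Sickle replicate 3 stood apart from the other arrays, with a first principal component score of 43.3 (43.9% of variance) against -15.1 to -2.31. In that array the 8 fibroblast markers had a high summed signal (86.9, with 71.9 and 72.2 in the other sickle arrays, against 69.3 to 71.6 in control), as had the 8 macrophage markers (73.0, with 63.6 and 65.0, against 62.1 to 64.1 in control). The cardiomyocyte markers had a median of -0.17 there relative to control. Without it, Acot1 differed by -1.58 and Acot2 by -0.83, as far from 0 as with it. Acot13 then differed by -0.07, Acot7 by -0.10, Acot4 by -0.14, Acot3 by -0.24 and Acot11 by 0.01, so Acot11 changed its sign. The part of those markers in the differences of these 5 genes was not tested. The medians of the beta-oxidation, synthetase and carnitine lists were -0.08, -0.04 and -0.10 without that array, and those of the peroxisomal list and of the receptors and cofactors were both -0.07. Among named genes, Ppargc1a then differed by -0.15, Ppargc1b by -0.12, Eci1 by -0.15, Ppara by -0.03 and Ppt1 by 0.17, all closer to 0. Also closer to 0 were Cpt2 (-0.24), Nudt7 (-0.35), Decr1 (-0.35), Slc25a20 (-0.40), Acsm5 (-0.44), Pex11a (-0.55), Plin5 (-0.64) and Them6 (0.18). Angptl4 (-0.49), Ppard (0.23), Fabp3 (-0.12), Rxra (-0.08), Lpl (0.08), Pparg (-0.23), Ucp3 (-0.55) and Acsm2 (0.37) lay farther from 0. The median of the PPAR target list was -0.19, and Pdk4 differed by -1.85.

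Erythroid markers moved with genotype, as 8 of 8 measured ones were higher in sickle. Of the 8, 6 passed an adjusted p of 0.05 (limma), where 0.181% of all genes did. Their summed signals were 62.7 to 67.5 in sickle and 51.0 to 52.3 in control. Their part in the thioesterase differences was not tested, and in tissue RNA fewer cells of a type and less RNA per cell cannot be told apart. The 12 cardiomyocyte markers were bright in every array (summed signals 146.6 to 149.5 in sickle and 148.8 to 149.0 in control), with a median difference of -0.06. The adipocyte markers Adipoq and Lep were not above the receptor background, and the 7 adipocyte markers summed to 42.0 to 44.6 in sickle and 43.1 to 43.6 in control. Control replicate 3 had high signals of the atrial genes Sln (8.08, against 3.10 to 3.36 in the other 5 arrays) and Myl7 (7.75, against 4.31 to 4.78). Myl4 was also highest there (5.93, against 5.02 to 5.55). Among the controls Nppa was highest there too (12.74, against 12.63 and 12.72), but all sickle arrays were higher (12.97 to 13.66). Bmp10 (5.01) lay below control replicate 2 (5.33). Without control replicate 3, Acot1 differed by -1.33 and Acot2 by -0.73.

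Across the 6 arrays, the gene whose profile was most like that of Acot1 was Timp4, an inhibitor of matrix metalloproteinases. Likeness was the root mean square difference between log2 values centred on each gene's mean, over 18843 other genes with proper names, and was 0.17 for Timp4. It had 6.68, 6.94 and 7.0015 in sickle, against 8.25, 8.51 and 8.57 in control. Angpt1 (0.34), Sult2a5 (0.37), Car4 (0.38) and Sema5a (0.40) followed, and Acot2 came at place 6 (0.40). For Acot2 the closest were Sult2a5 (0.11), C4bp (0.12), Cdkn1c (0.14), Car4 (0.14) and Mir504 (0.15). Seen from Acot2, Acot1 came at place 4647 (0.40), behind Acot4 (0.37), Acot13 (0.38) and Acot7 (0.38). This measure depends on the size of a difference as well as on its direction. Acot2 differed by -0.83 between the groups, Acot1 by -1.52, and Acot4, Acot13 and Acot7 by -0.15, -0.14 and -0.14. The places therefore do not show which of these genes shares the pattern of Acot2. The rows of Sult2a5, C4bp and Mir504 were not above the receptor level, and these profiles share the same 6 arrays and the same group difference.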

How the data were processed

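The authors deposited log2 values after RMA, per the submitters' processing notes, from Affymetrix Mouse Gene 2.0 ST arrays, 1 per mouse. Its version and settings, scan dates and the array build were not given in the sources used here; that the scale is log2 follows from the values. Of 25293 rows, 22030 had 1 gene symbol in the platform annotation, 685 several and 2578 none, and brightest rows gave 21506 genes. Promoters and gene order came from RefSeq (GRCm38.p6).

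Limma 3.58.1 in R 4.3.3 (lmFit, eBayes, group as the only term, two-sided, Benjamini-Hochberg over all genes) gave differences, standard errors and 95% intervals. A row counted as above background when its mean exceeded 4.92, the 95th percentile of 1362 olfactory and vomeronasal receptor rows. All 7 measured members were above it. For Acot3 the control mean (5.26) was above this level and the sickle mean (4.87) below it, with arrays on both sides in each group. The number of arrays limits the precision. Members and lists were chosen with earlier results of these data known. Named genes were the members, fixed neighbours in fatty acid handling, called genes and the 2 largest differences of each list, and the 5 genes most like Acot1 and Acot2. Acox2, Txnip and Creb3l3 were named outside this rule, as genes higher in sickle. In simulated sickle against control data with 21506 genes, 17 of 67 genes changed 1.5-fold, 54 of 67 changed 2-fold and 64 of 66 changed 4-fold were recovered, with 6 false among 141 calls. The simulated noise was normal, independent between genes and arrays, and took its variances from the distribution that limma fitted. It held no outlying array, so these rates need not hold for the real arrays. Figures used matplotlib 3.10.9.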

Additional observations from a re-analysis of the deposited data

How the results depend on the processing

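The alternatives were a mean-dependent prior, a background filter, a repeated quantile step, array weights, centring on the array median, a replicate block, leaving out each array, the mean over a gene's rows and no shared variance, 14 in all, and all rows for the count over the table. Acot1, Acot2 and the contrast of the pair with the other 5 members kept their direction under all 14; leaving out each array gave -1.76 to -1.33, -0.89 to -0.73 and -1.20 to -0.80. Acot1 passed the adjusted threshold with the prior, the filter, the quantile step, the weights and without control replicate 1, and Acot2 with the first 2 of these. The adjusted p ranged from 0.0257 to 0.411 for Acot1 and from 0.0232 to 0.378 for Acot2 (limma, or the ordinary linear model). No other member and no gene of the fatty acid lists passed in any fit. Averaging rows moved Acot4 to -0.24. Over the table, 39 genes were called, 0 without shared variance (ordinary linear model; 1740 at an unadjusted p under 0.05), 36, 21 and 21 without sickle replicates 1, 2 and 3, and 13, 5 and 4 without control replicates 1, 2 and 3. With the replicate block 12 were called, neither Acot1 nor Acot2 among them, as without it. The deviations of same-numbered arrays correlated over genes at 0.11, -0.05 and 0.05, and not every array was closest to its own number. With 3 arrays per group, these values cannot settle whether same-numbered mice were paired. The cause of the changes in the number of calls was not tested.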

Other observations

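Rows outside the rule add values on the same family. The row that Acot8 (a peroxisomal thioesterase) shares with Snx21 had 6.46, 6.35 and 6.43 in sickle, against 6.63, 6.69 and 6.32 in control, and the groups overlapped. A further row, shared by Acot11 and Fam151a, had 5.07, 5.32 and 4.72 in sickle, against 5.43, 4.99 and 5.13 in control, also with overlap. The dimmer of the 2 Acot4 rows had 4.35, 4.22 and 4.43 in sickle, against 4.60, 4.45 and 4.94 in control. Its groups did not overlap, and its difference of -0.33 was further from 0 than the -0.15 of the brighter row. Its group means (4.33 in sickle and 4.66 in control) lay below the receptor background of 4.92.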
